A study of Mus musculus with 2 samples.

Results

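The mitochondrial chromosome of the mouse carries 37 genes, and all of them were found by Ensembl identifier in both deposited gene tables, among 43346 genes listed in each. They comprise 13 mRNA genes (symbols mt-Nd1 to mt-Nd6, mt-Cytb, mt-Co1 to mt-Co3, mt-Atp6 and mt-Atp8), 2 rRNA genes and 22 tRNA genes. The RNA came from the forebrain of newborn B6NCrl mice (postnatal day 0, sex not collected), taken to libraries at 13 pg, an amount equal to 1 cell, with a size range above 200 nt. There were 2 libraries, called pup 1 (replicate 1) and pup 3 (replicate 2), which form 1 group with no treated or mutant arm. Both carry the same donor identifier in the labels. Despite its listing as a single-cell assay, the input was RNA of a whole forebrain, so each value averages over many cell types. With 1 library per pup no difference was tested, no p-value is given, and spread between pups cannot be told apart from spread between libraries. Levels are TPM, reads per effective length brought to a common sum, and reads are the deposited expected counts.

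Mitochondrial DNA is a circle transcribed from both strands into long precursors. The tRNAs lie between most of the mRNAs and rRNAs and are cut out, which frees the mRNAs, and most mRNAs then receive a poly(A) tail. The mRNAs encode core subunits of complexes I, III, IV and V of the respiratory chain, which supplies most of the ATP of neurons, while all the remaining subunits come from nuclear genes. Stretches of mitochondrial DNA have also been inserted into nuclear chromosomes in evolution, and such insertions can carry near-identical copies of mitochondrial genes.

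Near-identical copies of 7 of the 13 mRNAs are listed as nuclear genes in these tables, and they are described first because they hold reads of the same sequence. A blastn search of the mitochondrial transcripts against GENCODE M21 transcripts of the listed nuclear genes found 15 nuclear genes with at least 90% identity over at least 100 bases. Of these, 7 matched a mitochondrial mRNA at 99% or more. All 7 lay side by side on mm10 chr1:24611535-24616197, minus strand, and are annotated as unprocessed pseudogenes, meaning gene copies that are not thought to encode a protein. They are Gm29216 (copy of mt-Co1), Gm28661 (mt-Co2), Gm10925 (mt-Atp6), Gm28437 (mt-Co3), Gm28438 (mt-Nd3), Gm10222 (mt-Nd4l) and Gm28439 (mt-Nd4), in the same order as on the mitochondrial chromosome. The positions of matched bases on the 2 chromosomes added up to 24622578 for 5 of the pairs and to 24622577 for mt-Nd4l and mt-Nd4, so the block ran parallel with a shift of 1 base.

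Sequences from GENCODE M21 (mm10), written 5′ to 3′, show how little separates a pair. The first 60 bases of mt-Co3, which encodes cytochrome c oxidase subunit III (chrM:8607-8666, plus strand), and of Gm28437 (chr1:24613912-24613971, minus strand) are the same, as are all 783 bases of that copy:
mt-Co3: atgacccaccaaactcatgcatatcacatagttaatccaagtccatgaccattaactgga
Gm28437: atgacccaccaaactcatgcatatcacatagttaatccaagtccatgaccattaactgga
The copy of mt-Nd3, a complex I subunit, differs at 1 base over 345, T3C, counted from the first base of mt-Nd3 with the mitochondrial base first. The pair is shown at chrM:9459-9539 (plus strand) and chr1:24613039-24613119 (minus strand), with the differing base in capitals:
mt-Nd3: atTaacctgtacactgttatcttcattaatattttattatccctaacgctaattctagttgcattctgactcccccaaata
Gm28438: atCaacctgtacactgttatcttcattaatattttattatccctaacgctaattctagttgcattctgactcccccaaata
For mt-Co1, the catalytic subunit of cytochrome c oxidase, a near copy on chromosome 1 and a more diverged one on chromosome 2 can be set side by side at chrM:6390-6470 (plus strand), chr1:24616108-24616188 (minus strand) and chr2:22588505-22588585 (minus strand). Capitals mark bases at which either copy differs from mt-Co1, and in a copy's line only that copy's own differences:
mt-Co1: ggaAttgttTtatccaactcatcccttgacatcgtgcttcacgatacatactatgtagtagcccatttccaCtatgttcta
Gm29216: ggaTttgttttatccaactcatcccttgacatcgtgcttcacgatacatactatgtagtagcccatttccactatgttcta
Gm13340: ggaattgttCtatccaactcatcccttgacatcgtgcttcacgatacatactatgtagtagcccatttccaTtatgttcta
Gm29216 has 1 substitution, A1066T, over the 483 bases that align, and Gm13340 has 37 over 1545 bases.

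The effective length in the tables was the annotated length minus 99 for 41246 of the 41288 features that have one, the value that a read of 100 bases gives. Windows of 100 bases were therefore compared between each mitochondrial gene and all listed nuclear transcripts, on either strand. For mt-Co3 99.9% of the windows occurred unchanged in a nuclear transcript, for mt-Co2 and mt-Atp6 99.5%, for mt-Nd4l 98.5% and for mt-Nd3 97.6%. The share was 60.8% for mt-Nd4 and 30.8% for mt-Co1, whose near-identical copies are shorter. It was 3.19% for mt-Nd2, and 0 for mt-Nd1, mt-Atp8, mt-Nd5, mt-Nd6, mt-Cytb and both rRNAs. mt-Atp8 lies between mt-Co2 and mt-Atp6, and the stretch of chromosome 1 between their copies holds no listed gene and was not compared, so here a gene without a copy is one without a copy among listed transcripts. A read that lies in a shared window holds nothing that tells the entries apart.

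The near-identical copies held 558562 reads in pup 1 and 459916 reads in pup 3, which is 1.36% and 1.54% of all reads. This exceeded the reads of the 7 mitochondrial genes they copy, 474048 in pup 1 and 412913 in pup 3. The largest was Gm28437, with 250025 reads in pup 1 and 257864 in pup 3, beside 38195 and 48857 reads for mt-Co3 itself. Of each pair's reads, the mitochondrial entry held 13.3% in pup 1 and 15.9% in pup 3 for mt-Co3, 4.78% and 5.91% for mt-Nd4l, and 20.6% and 22.1% for mt-Nd3. The split was less even between pups for mt-Co2, an oxidase subunit, at 23.3% in pup 1 and 45.7% in pup 3, and for mt-Atp6, part of the proton channel of ATP synthase, at 49.6% and 63.6%.

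Gm29216, which matches bases 1063 to 1545 of mt-Co1 and so its 3′ end, held the rest of that pair, the mitochondrial entry having 80.9% in pup 1 and 74.8% in pup 3. Gm28439, which matches the first 876 of the 1378 bases of mt-Nd4, was given only 13.1 and 12.4 reads, and mt-Nd4 kept 99.98% of the pair in each pup. The copies on other chromosomes, which differ more, received little. The 8 copies below 99% identity had between 0 and 78.0 reads in either library, the highest being Gm13340 (78.0 reads in pup 1 and 30.6 in pup 3) and Gm13341, a copy of mt-Co2 (66.7 and 38.2 reads). Gm4076 and Gm11407, copies of mt-Nd5, had 3 reads in each pup and 2 reads in pup 1 alone, and Gm13339, a copy of mt-Nd2, had 1.21 and 1.33 reads. Gm11512, Gm11408 and Gm11410 had 0 reads in both. Whether any read came from the chromosome 1 block itself was not tested.

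**Figure D1:**
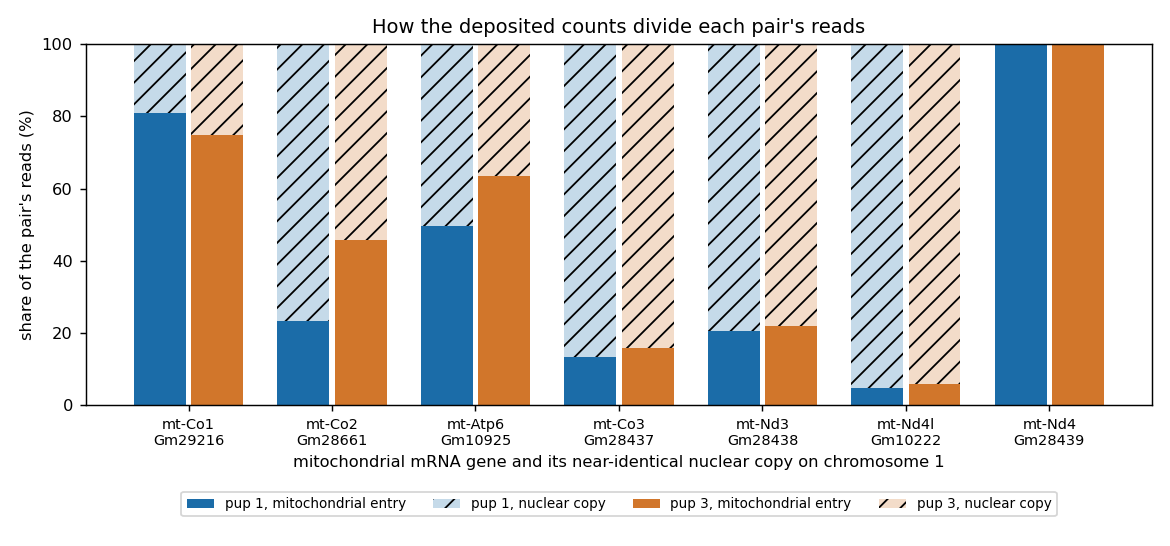
Share of the reads of each mitochondrial mRNA and its near-identical nuclear copy that the deposited counts give to the mitochondrial entry (solid) and to the copy (hatched), in percent, with 1 bar per pup. The mitochondrial share runs from 4.78% for mt-Nd4l in pup 1 to 99.98% for mt-Nd4.

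The deposited uncertainty was large for the genes with nearly all windows shared. For the 6 mRNAs without a listed near-identical copy, the posterior SD of the count was at most 0.0035% of its mean in either pup. It was 70.0% in pup 1 and 68.6% in pup 3 for mt-Co3, 42.3% and 29.1% for mt-Co2, 26.9% and 25.6% for mt-Atp6, 33.1% and 75.2% for mt-Nd4l, and 14.2% and 10.2% for mt-Nd3. For mt-Co1 and mt-Nd4, which share part of their windows, it was at most 0.21%. The deposited credibility bounds of mt-Co3 reached from 1379 to 12177 TPM in pup 1 and from 1972 to 15147 TPM in pup 3, an interval that covers counting and assignment of reads only. The deposited posterior mean TPM, which averages over possible splits, gave mt-Co3 5430.1 TPM in pup 1 and 6743 in pup 3, more than its TPM, and mt-Co2 4082 and 4781 TPM. With or without such a listed copy, the TPM could lie just outside its own bounds. In pup 1 mt-Rnr1, without a copy, had 673 TPM and bounds of 648 to 669. There mt-Co1, with a copy, had 5122 TPM and bounds of 4990 to 5043. Because the split of a pair is this uncertain, each level below is given for the mitochondrial entry alone and, where it differs, for the pair. The pair's level is the summed reads over the effective length of the mitochondrial gene. It counts every read of the copy as the gene's and is an upper value.

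All 13 mRNAs and both rRNAs reached TPM of 1 or more, here called found, in both pups. The mRNA entries held 886453 reads in pup 1 and 790827 in pup 3, which is 2.16% (95% Clopper-Pearson interval 2.15 to 2.16) and 2.65% (2.64 to 2.65) of the reads. In TPM their sum was 45205 in pup 1 and 53330 in pup 3, or 4.93% ± 0.575 of TPM (SD, n = 2). With the copies their share of reads was 3.52% in pup 1 and 4.19% in pup 3, and their summed level 79127 and 86183 TPM. The intervals cover counting error alone, because the files hold no molecular identifiers and reads may come from 1 molecule. Spike-in RNA took 4.46% of TPM in pup 1 and 7.30% in pup 3, so shares of the whole are not shares of forebrain RNA alone. Reads summed over all listed features, spike-ins included, came to 41082811 in pup 1 and 29881397 in pup 3. Shares of reads are shares of these sums, which leave out reads that matched no listed feature. In bulk RNA, fewer cells of a type and less RNA per cell cannot be told apart.

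Complex I, the NADH dehydrogenase, takes 7 of the mRNAs. mt-Nd1 was the highest of them as an entry, with 5905 TPM in pup 1 and 7054 TPM in pup 3 (134455 and 140257 reads). mt-Nd4 followed at 2577 ± 134 TPM and mt-Nd2 at 1399 ± 232 TPM (SD, n = 2). mt-Nd2 has no listed near-identical copy, and mt-Nd4 kept nearly all reads of its pair. mt-Nd5 stood at 1061 ± 183 TPM. mt-Nd6, the only mRNA on the minus strand (chrM:13552-14070), stood at 646 TPM in pup 1 and 738 in pup 3 from 7202 and 7183 reads. It overlaps mt-Nd5 by 14 bases on the opposite strand, and the strand setting of the counts is not given in the sources used here.

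The smallest complex I genes depended most on their copies. mt-Nd3 had 427 TPM in pup 1 and 909 TPM in pup 3 as an entry, and 2077 and 4122 TPM as a pair. mt-Nd4l had 82.3 TPM in pup 1 and 68.5 TPM in pup 3 from 432 and 314 reads, and 1722 and 1159 TPM as a pair. mt-Nd4l was thus the lowest mRNA as an entry in both pups, but not as a pair, where mt-Nd6 was the lowest.

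mt-Nd4l and mt-Nd4 are carried on 1 mature mRNA, and so are mt-Atp8 and mt-Atp6, and in each case the reading frames overlap. The overlaps are shown in capitals, 7 bases at chrM:10147-10193 and 43 bases at chrM:7907-7989, both on the plus strand:
mt-Nd4l to mt-Nd4: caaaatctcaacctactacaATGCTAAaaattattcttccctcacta
mt-Atp8 to mt-Atp6: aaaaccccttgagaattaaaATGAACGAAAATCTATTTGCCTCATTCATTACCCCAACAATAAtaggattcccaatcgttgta
For the first of these, the mt-Nd4 entry was 30.2 times the mt-Nd4l entry in pup 1 and 39.0 times in pup 3. With both copies included the ratio was 1.44 in pup 1 and 2.31 in pup 3.

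The ATP synthase genes were the most abundant entries. mt-Atp8, a small membrane subunit, had 10348 TPM in pup 1 and 13267 in pup 3, the highest of all 37 genes in both, although from only 28834 and 32282 reads. Its length is 204 bases and its effective length 105, so its TPM rests on few start positions. mt-Atp6 had 7311 TPM in pup 1 and 12296 TPM in pup 3 as an entry, and 14748 and 19347 TPM as a pair. The ratio of mt-Atp8 to mt-Atp6 was 1.42 in pup 1 and 1.08 in pup 3 for the entries, and with the copy mt-Atp6 was the higher, 1.43 and 1.46 times mt-Atp8.

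Complex IV, cytochrome c oxidase, gained most from its copies. mt-Co1 stood at 5122 TPM in pup 1 and 1806 in pup 3 as an entry, and at 6327 and 2415 TPM as a pair. mt-Co2 stood at 2505 TPM in pup 1 and 3908 in pup 3 as an entry, and at 10741 and 8552 TPM as a pair. mt-Co3 stood at 2101 TPM in pup 1 and 3078 in pup 3 as an entry, and at 15855 and 19322 TPM as a pair. As pairs, mt-Co3 and mt-Atp6 were the highest mRNAs in both libraries and differed from each other by less than the SD between pups (17588 ± 2452 and 17048 ± 3252 TPM). mt-Cytb, the complex III subunit, has no listed near-identical copy and stood at 5445 ± 474 TPM.

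The order of the 13 entries by mean TPM was mt-Atp8, mt-Atp6, mt-Nd1, mt-Cytb, mt-Co1, mt-Co2, mt-Co3, mt-Nd4, mt-Nd2, mt-Nd5, mt-Nd6, mt-Nd3 and mt-Nd4l. Of neighbours in that order, mt-Atp8 and mt-Atp6, mt-Atp6 and mt-Nd1, mt-Cytb and mt-Co1, mt-Co1 and mt-Co2, mt-Co2 and mt-Co3, mt-Co3 and mt-Nd4, and mt-Nd6 and mt-Nd3 lay within the larger of their SDs. The highest entry was 126 times the lowest in pup 1 and 194 times in pup 3. Over pairs that factor was 24.5 and 26.2.

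**Figure D2:**
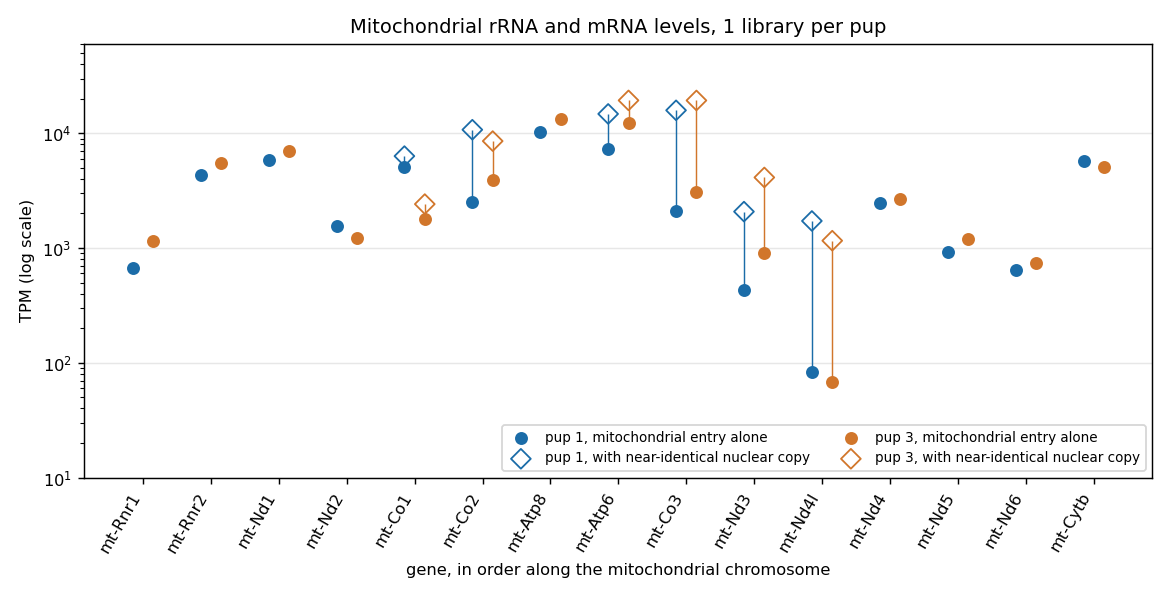
TPM (log axis) of the 2 rRNAs and 13 mRNAs in the order of the chromosome, with 1 point per pup. Filled points are the mitochondrial entry and open diamonds the pair with its near-identical nuclear copy, drawn for all but mt-Nd4, whose copy holds 13.1 and 12.4 reads. mt-Co3 stands at 2101 TPM as an entry and 15855 TPM as a pair in pup 1. mt-Nd4l is the lowest filled point, at 82.3 and 68.5 TPM.

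The rRNA of the large mitochondrial ribosomal subunit, mt-Rnr2, had 4309.95 TPM in pup 1 and 5544 TPM in pup 3. That of the small subunit, mt-Rnr1, had 673 TPM in pup 1 and 1159 TPM in pup 3, from 15279 and 22985 reads. A mitochondrial ribosome holds each of them at the same number, but mt-Rnr2 was 6.41 times mt-Rnr1 in pup 1 and 4.79 times in pup 3. Together the rRNAs took 0.584% ± 0.122 of TPM (SD, n = 2). The summed mRNA entries exceeded the summed rRNAs 9.07 times in pup 1 and 7.96 times in pup 3, and 15.9 and 12.9 times with the copies. What sets this ratio was not tested.

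None of the 22 tRNA genes had a read in either pup, and the tables could not have given them one. The tRNA genes are 59 to 75 bases long and all 22 have an effective length of 0, which means that no read position was open to them. The same held for all 2196 nuclear genes shorter than 100 bases, none of which had a read. Among the 3872 nuclear genes of at least 100 and under 200 bases, 113 had a read in either pup. The labels also give a size range above 200 nt, longer than any tRNA. The 0 is therefore no measure of tRNA level, and no upper limit follows from it. The scale is shown by mt-Tf (phenylalanine, chrM:1-68, plus strand) and mt-Tl1 (leucine, chrM:2676-2750, plus strand), each shorter than 1 read of 100 bases:
mt-Tf: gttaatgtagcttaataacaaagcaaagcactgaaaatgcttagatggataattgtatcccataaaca
mt-Tl1: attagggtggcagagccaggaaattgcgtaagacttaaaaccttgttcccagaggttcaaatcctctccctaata

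Reading frames of mitochondrial mRNAs can end in a partial stop codon, which the poly(A) tail completes. Of the 13 mRNAs as annotated, 10 ended in a whole stop codon and 3, mt-Co3, mt-Nd4 and mt-Cytb, in a single T past the last codon. The annotated TAG stops of mt-Nd1 and mt-Nd2 run into the next tRNA gene on the same strand. mt-Nd1 ends at chrM:3707 and mt-Ti starts at chrM:3706, while mt-Nd2 ends at chrM:4951 and mt-Tw starts at chrM:4950. Where the mature mRNAs of these genes end, and so whether their stops are whole, was not tested. The last bases are shown with the stop letters in capitals, for mt-Co3 at chrM:9360-9390, mt-Nd4 at chrM:11514-11544, mt-Cytb at chrM:15258-15288 and, with a whole codon, mt-Co1 at chrM:6843-6872, all on the plus strand:
mt-Co3: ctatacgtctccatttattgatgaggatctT
mt-Nd4: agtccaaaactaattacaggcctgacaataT
mt-Cytb: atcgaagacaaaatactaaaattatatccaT
mt-Co1: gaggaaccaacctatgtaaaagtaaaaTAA
The 3 genes annotated with a partial codon stood at 2589, 2577 and 5445 TPM on average as entries, and mt-Co3 at 17588 TPM as a pair.

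Between the pups the mRNAs kept much of their order. Across the 13 entries Pearson's r of log2(TPM + 1) was 0.948 and Spearman's rho 0.956, as a description over genes of 1 chromosome that share the same libraries and lengths. Pup 1 over pup 3, their median log2 ratio was -0.26, with 4 entries higher in pup 1 and 9 in pup 3. The 281 nuclear genes whose mean TPM was at least 500 had a median of -0.12 and an SD of 1.02, and the 13 entries an SD of 0.64. Over the 10733 nuclear genes at mean TPM of 1 or more, most of them far lower in level, the median was 0.79 and the SD 2.97, so the mRNAs lay below that median. Of all listed genes, 10096 were found in pup 1 and 6960 in pup 3. In FPKM all ratios shift, the median of those nuclear genes by -0.26, and the mRNAs then stood at -0.52, with 3 entries higher in pup 1 and 10 in pup 3. Relative to the median of the 281 nuclear genes of high level the mRNAs lay at -0.14 on both scales. The equal value follows from the scales, which differ only by 1 factor per library.

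Of the 13 entries, 2 were more than 2-fold apart, mt-Co1 higher in pup 1 and mt-Nd3 higher in pup 3. Among nuclear genes at mean TPM of 500 or more 21.7% were that far apart (10.3% higher in pup 1 and 11.4% higher in pup 3), and at mean TPM of 1 or more 70.6% (47.7% and 22.9%). A share of 2 in 13 is near that of nuclear genes of high level. mt-Co1 was 2.84 times as high in pup 1 as in pup 3, with a log2 ratio of 1.503 as an entry and 1.39 as a pair. It was higher in pup 1 on all 6 scales computed, but these come from the same 2 libraries and are no separate support. mt-Nd3 was 2.13 times as high in pup 3, with a log2 ratio of -1.09 as an entry and -0.99 as a pair, within 2-fold.

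For mt-Co2 the direction turned with the copy, the log2 ratio being -0.64 for the entry and 0.33 for the pair. The 6 mRNAs without a listed near-identical copy spanned -0.36 (mt-Atp8) to 0.34 (mt-Nd2), and 0 of them were more than 2-fold apart. mt-Cytb was higher in pup 1 in TPM (5781 in pup 1 and 5110.2 in pup 3) but higher in pup 3 in FPKM and CPM. mt-Nd4l, also higher in pup 1 in TPM, was higher in pup 3 in posterior mean TPM (89.4 in pup 1 and 97.6 in pup 3), so that 3 entries were then higher in pup 1 and 10 in pup 3. mt-Rnr1 and mt-Rnr2 had log2 ratios of -0.78 and -0.36. Both were higher in pup 3 on all 6 scales, which again are no separate support.

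**Figure D3:**
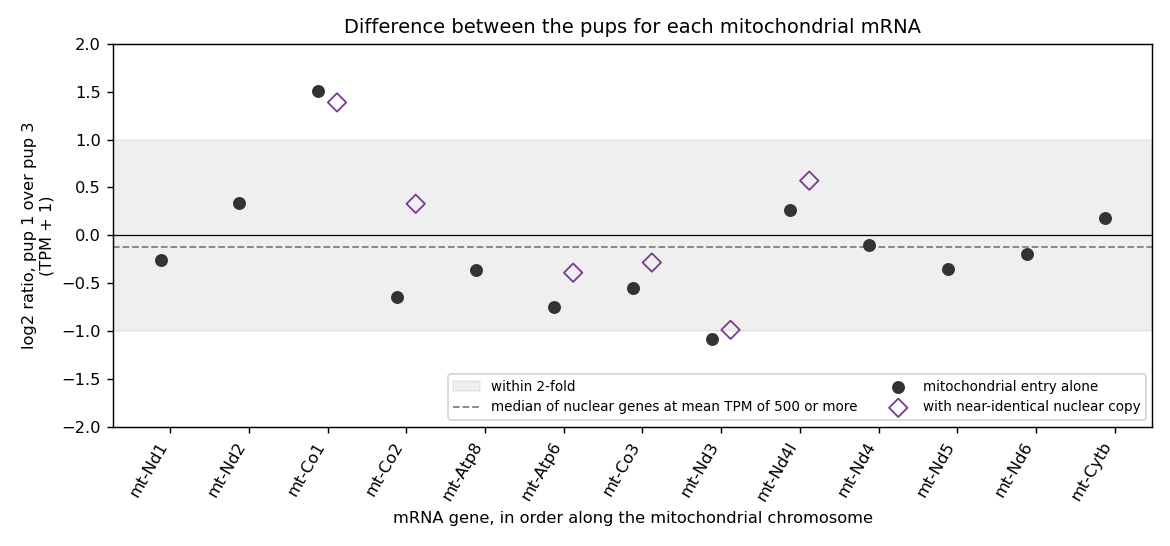
Log2 ratio of pup 1 to pup 3, on TPM + 1, for each mitochondrial mRNA as an entry (filled points) and as a pair with its near-identical copy (open diamonds). The grey band is 2-fold and the dashed line the median of nuclear genes at mean TPM of 500 or more, at -0.12. mt-Co1 lies above the band at 1.503, and mt-Co2 changes side between its points.

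Nuclear genes supply the other subunits of the same complexes, and 71 of them were listed beside 4 of complex II, all 75 found in both pups. Summed TPM of the mitochondrial mRNAs exceeded that of the 75 nuclear subunits 1.39 times in pup 1 and 1.10 times in pup 3, and 2.44 and 1.77 times with the copies. Here and below, copies were added to the mitochondrial side only, and no reads of copies to the nuclear subunits. Per gene the gap was wider, as the median of the 13 mRNA entries was 2482 TPM in pup 1 and 2671 TPM in pup 3, against 392 and 545 TPM for the nuclear subunits. With the copies the median of the 13 mRNAs was 5781 TPM in pup 1 and 4122 TPM in pup 3. In complexes III and V every mitochondrial entry lay above the highest nuclear subunit in each pup. In complex IV all 3 did in pup 1 and 2 did in pup 3, where mt-Co1 (1806 TPM) lay level with the nuclear subunit gene Ndufa4 (1807 TPM). In complex I 4 of 7 did in each pup. With the copies all 3 of complex IV did in each pup, and of complex I 6 did in pup 1 and 5 in pup 3.

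By complex, the ratio of summed mitochondrial to summed nuclear TPM was 1.06 in pup 1 and 0.848 in pup 3 for complex I, 1.29 and 0.772 for complex III, 1.32 and 0.747 for complex IV and 2.12 and 2.07 for complex V. With the copies complex I stood at 1.35 in pup 1 and 1.11 in pup 3, and complex V at 3.02 and 2.64. Complex IV then stood at 4.48 and 2.58, the largest change of these. The highest nuclear subunits were Ndufb8 (886 ± 258), Ndufb9 (852 ± 447) and Ndufc1 (734 ± 195 TPM) for complex I. For complex III they were Uqcr11 (1247 ± 688), Uqcrq (994 ± 479) and Uqcr10 (847 ± 499 TPM). For complex IV they were Ndufa4 (1380 ± 604), Cox6a1 (1345 ± 80.9) and Cox4i1 (1278 ± 240.0 TPM), and for complex V Atp5b (1404 ± 575), Atp5g1 (913 ± 240) and Atp5e (821 ± 462 TPM; SD, n = 2 throughout). Complex II has no mitochondrial subunit, and its genes were led by Sdhb (604 ± 177), Sdhc (378 ± 237) and Sdha (143 ± 56.0 TPM).

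The nuclear subunits were mostly higher in pup 3. Of 75, 15 were higher in pup 1 and 60 in pup 3. Their median log2 ratio was -0.60, against 4 and 9 of the 13 mitochondrial entries and a median of -0.26. The median was -0.12 over the 281 nuclear genes at mean TPM of 500 or more. Over the 10733 at mean TPM of 1 or more it was 0.79. The share of those nuclear genes that was higher in pup 3 by any amount was not computed. More than 2-fold apart were 20 of the 75, 2 higher in pup 1 and 18 higher in pup 3. Of nuclear genes at mean TPM of 500 or more 21.7% were that far apart (10.3% higher in pup 1 and 11.4% higher in pup 3), and at mean TPM of 1 or more 70.6% (47.7% and 22.9%). The difference between the sets was not tested.

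**Figure D4:**
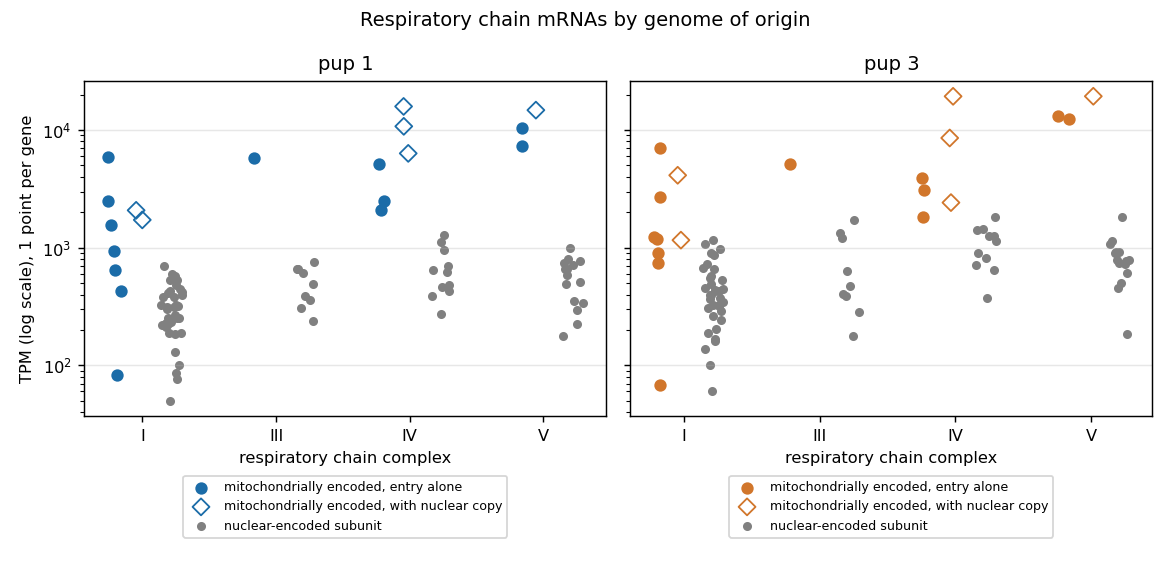
TPM (log axis) of respiratory chain mRNAs by complex in pup 1 (left) and pup 3 (right), 1 point per gene, with the mitochondrially encoded entries (filled), the pairs with a nuclear copy (open diamonds) and the nuclear-encoded subunits (grey). Mitochondrial entries of complexes III and V lie above all grey points, and those of complex I overlap them.

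The labelled tissue was checked against markers of its cells and of other tissues. The 6 forebrain neuron markers were all found in both pups, led by the neuronal tubulin gene Tubb3 (6275 TPM in pup 1 and 1872 TPM in pup 3), Stmn2 (1786 and 1738 TPM) and Neurod6 (272 and 456 TPM). The 4 astroglial markers were also found in both, led by Fabp7, Apoe and Aldoc (1813 ± 674, 1177 ± 7.46 and 257 ± 90.8 TPM). The 5 hindbrain and spinal cord markers were found in neither, with 1 read of Hoxa2 in pup 1 and 0 reads of the other 4, Hoxa4 and Hoxb4 among them. The liver and brown fat markers Alb and Ucp1 had 0 reads, and 0 of 4 muscle markers were found in both pups, with Acta1 at 18.8 TPM in pup 1 and 0.03 in pup 3, Tnnt2 at 1.21 and 0.55, and Ckm at 0.69 and 0.23 TPM. Among all 43346 listed genes only 10096 were found in pup 1 and 6960 in pup 3, so the absence of a few markers is a weak check. Erythroid markers were found 5 of 5 in both, at a sum of 1750.3 TPM in pup 1 and 3276 in pup 3 (Hba-a2 1098 ± 573, Hbb-bs 637 ± 254 and Hba-a1 550.1 ± 278 TPM). The part of these cell types in the mitochondrial levels was not tested.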

How the data were processed

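The deposited gene and transcript tables of 2 libraries were used, 1 table of each kind per library, not pooled. The authors deposited expected counts (fractional where a read matches several features), TPM, posterior mean TPM and FPKM, per the file headers, which use RSEM's names for columns. The deposited posterior SD of the count and credibility bounds of TPM are the authors' estimates, of unit score. The build is mm10 and the annotation M4, as text beside the tables states. The aligner, counter and strand setting were not given in the sources used here.

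Depth here is the sum of expected counts over all listed features, spike-ins included, at 41082811 reads in pup 1 and 29881397 in pup 3. Of 43346 genes, 42462 matched GENCODE M21 (mm10) by identifier, and all 37 mitochondrial genes had the same length in both. Per the labels the pups differ but carry a single donor identifier, so the libraries, which form 1 group, may be partly technical replicates. No test was run. Log2 ratios are on TPM + 1 and 1 TPM was the threshold for found. A floor of 3 reads comes to 0.0730 (pup 1) and 0.1004 (pup 3) CPM. The nuclear genes of the comparison leave out the 15 copies. Copies were found with blastn 2.17.0 (E-value at most 1e-10, at least 90% identity over 100 bases or more). The windows of 100 bases were compared by exact match with 126428 transcripts.

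Named genes are all members, the 3 highest of each list and every copy. The members, lists and rules were chosen with earlier results of these data known, and the treatment of copies after their values were seen. Of 143 list entries 141 matched, and Prorp and Fastkd4 did not. Of the steps, only the 2-fold call, with counting noise alone, and the match of windows were tested on simulated data. Alternatives covered the unit, the total, the pseudocount, a filter on low values, the length, each pup alone and the copies. The tables were read with pandas 2.3.3 and numpy 2.4.6 under Python 3.11.15, intervals came from scipy 1.17.1 and plots from matplotlib 3.10.9.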

Additional observations from a re-analysis of the deposited data

How the results depend on the processing

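Results were recomputed in FPKM, CPM and posterior mean TPM, without spike-ins, on nuclear genes alone, from the transcript table, with other pseudocounts and filters, and with the copies added, the last chosen after seeing the data. The mRNA share of 4.93% was 2.40% in CPM, which ignores length, 5.57% relative to nuclear genes alone and 8.27% with the copies, and 4.52% to 5.33% without a replicate. The rRNA share of 0.584% was recomputed for the units, the totals and the transcript table, and moved by less than the SD between pups in each. It was 0.498% to 0.670% without a replicate, which with 2 pups cannot lie further from the mean than that SD. The ratio of mRNA to rRNA, 8.51 in TPM, was 4.25 in CPM, 9.60 in posterior mean TPM and 14.4 with the copies, and 7.96 to 9.07 without a replicate. The ratio to nuclear subunits, 1.25, was 2.11 with the copies, and 1.10 to 1.39 without a replicate. The median log2 ratio between pups ranged from -0.52 to -0.19 and kept its sign in all settings computed for it. The number of mRNAs over 2-fold apart, 2 of 13, was 3 in FPKM and CPM, where mt-Atp6 passed as well, 1 with the copies and 0 over the 6 mRNAs without a listed near-identical copy. Counts of mRNAs (13) and tRNAs (0) found did not change. Of the 13 shares of single mRNAs in their class, 11 moved by more than the SD between pups with the copies, 10 in CPM, 7 in posterior mean TPM and 4 with annotated length. Ratios between pups have no value with 1 pup left out. Of the 13 entries mt-Nd4l had the fewest reads, 432 in pup 1 and 314 in pup 3, but its pair held 9048 and 5318. The posterior SD of its count was 33.1% and 75.2% of the mean. Besides the low count of this entry, the split of its pair is thus uncertain. No paired analysis was possible because the design has 1 group.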

Other observations

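Nuclear genes that copy, process and translate the mitochondrial genome lay below the median mitochondrial mRNA entry (2482 TPM in pup 1, 2671 TPM in pup 3). Of all 43346 listed genes, 10096 were found in pup 1 and 6960 in pup 3, and the counts that follow stand beside these. Of 13 genes for transcription and replication of mitochondrial DNA, 4 were found in both pups, 6 in pup 1, 4 in pup 3 and 7 in neither. The highest was Tfam, which packages that DNA and helps to start its transcription, at 63.6 TPM in pup 1 and 96.8 in pup 3. Next by mean TPM came Mterf3 at 47.1 and 49.0 TPM, and the single-strand binding protein gene Ssbp1 at 61.5 and 27.8 TPM. Of 16 matched genes for processing and stability of mitochondrial RNA, 6 were found in both pups, 12 in pup 1 and 7 in pup 3. They were led by Slirp, which stabilises mitochondrial mRNAs with its partner Lrpprc, at 128 and 229 TPM, and by Hsd17b10, a subunit of the enzyme that cuts the 5′ ends of mitochondrial tRNAs, at 128 and 117 TPM. Supv3l1, a helicase of mitochondrial RNA decay, was at 0.02 TPM (1 read) in pup 1 and 86.7 TPM in pup 3. On log2(TPM + 1), 9 of these genes were more than 2-fold apart, 7 higher in pup 1 and 2 higher in pup 3, and 70.6% of nuclear genes with a mean TPM of 1 or more were that far apart. Elac2, the enzyme that cuts the 3′ ends of tRNAs, was at 32.8 TPM in pup 1 and listed at 0 in pup 3, and Lrpprc at 17.7 TPM and 0, both chosen after their values were seen. Of 11 mitochondrial translation factors, 6 were found in both pups, 9 in pup 1 and 7 in pup 3. They were led by the elongation factors Tufm (33.2 and 138 TPM), Tsfm (66.0 and 53.8 TPM) and Gfm1 (33.5 and 55.6 TPM).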
